A study of Mus musculus with 6 samples.

Results

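Endothelin-1 and other secreted growth factors were followed in mouse macrophages through 10 genes, *Edn1*, *Vegfa*, *Hbegf*, *Areg*, *Ereg*, *Pdgfb*, *Inhba*, *Tgfb1*, *Igf1* and *Hgf*. They were measured by 16 probes, out of 55680 probes and 34787 gene names tested on the array. *Edn1* was selected on its measured differences with LPS and with the inhibitor, and the whole list was drawn up with earlier results of these arrays known. The values of *Edn1* are therefore given with their standard errors and no p, and the calls of the other members describe them and support nothing.

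Macrophages were grown for 7 days in L929 conditioned medium from bone marrow of wild type female mice of strain C57/B6, 6 to 8 weeks of age by the sample labels. One group was untreated, one received LPS, the bacterial cell wall component that TLR4 recognizes, for 4 h, and one received the USP7 inhibitor HBX41,108 at 10 µM for 30 min and then LPS for 4 h (LPS+USP7i). The LPS dose is 100 ng/ml in the series record and 100 ng/µl in the labels, and neither says whether the cells without inhibitor received its solvent, so the comparison of LPS+USP7i with LPS cannot tell the inhibitor and its solvent apart. Each group had 2 arrays, which the series record describes as independent experiments, and so few arrays limit how precisely each value is known.

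Endothelin-1 is a short peptide that constricts blood vessels through the receptors EDNRA and EDNRB, and activated macrophages make it as well as endothelial cells. The other members act on vessels (VEGFA, PDGFB), on cells with EGF receptors (HB-EGF, amphiregulin, epiregulin), through activin and TGF-beta receptors (the activin subunit encoded by *Inhba*, TGF-beta1), or through the tyrosine kinases IGF1R and MET (IGF1, HGF). Ligands of the EGF family are made as membrane-bound precursors that the protease ADAM17 releases, and activins and TGF-beta signal through SMAD proteins and are held in check by binding proteins such as follistatin and by the inhibitory SMAD7.

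RNA was labeled with Cy3 and hybridized to 1-color Agilent arrays on 1 slide, each with 59305 spots that were not controls. Values are background-corrected spot intensities on the log2 scale after quantile normalization, averaged over the spots of a probe. The scanner software states for each spot whether it is well above background, and a probe was given that status on an array by the majority of its spots. The number of such spots was 27467 and 27126 for the untreated group, 25223 and 25002 for LPS, and 26415 and 25290 for LPS+USP7i. Each group had a slide row of its own (row 1 untreated, row 2 LPS, row 4 LPS+USP7i), so slide row and treatment cannot be told apart.

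The macrophage label was checked against 10 defining genes, and all 10 were well above background on every array, among them *Csf1r*, the receptor of the growth factor that L929 medium supplies, which had the brightest probe by the mean over the 6 arrays (17.31 on LPS+USP7i replicate 2, where *Cd68* was at 17.32). The brightness of different probes does not rank the amounts of their RNA. The summed linear signal of the 10 genes was 903727 and 901866 in untreated cells, 868343 and 897943 under LPS, and 755771 and 711321 under LPS+USP7i. Markers of the cell types best known for making or receiving these factors were low or partial. Of 8 endothelial genes, *Kdr* and *Vwf* were well above background on all arrays and *Tek*, *Emcn* and *Tie1* on none. The endothelial sums were 12986 and 13979 in untreated cells, 9978 and 11094 under LPS, and 15702 and 13158 under LPS+USP7i. *Kdr* had the brightest probe by the mean over the 6 arrays, while on untreated replicate 2 *Vwf* was at 13.07 and *Kdr* at 12.38. Of 8 fibroblast genes, 0 were well above background on all arrays, and *Col1a1*, *Col3a1*, *Lum* and *Pdgfra* were so on none. All 4 epithelial genes were never well above background.

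Neutrophil and granulocyte precursor genes differed between replicates. Of these 8 genes, 6 were well above background on all arrays, with the probe of *Elane* the brightest by the mean over the 6 arrays, while on LPS replicate 2 *S100a9* was at 12.38 and *Elane* at 11.36. Their sums were 5247 and 6960 in untreated cells, 5870 and 11805 under LPS, and 6205 and 9795 under LPS+USP7i. The sum was higher in replicate 2 of each group, while *Ly6g* and *Mpo* had their higher values in replicate 1 of each group (*Mpo* at 8.39 and 6.45 in untreated cells, 8.65 and 6.67 under LPS, and 6.49 and 4.84 under LPS+USP7i). Dendritic cell genes were well above background on all arrays for 1 of 6 (*Siglech*, also the brightest probe). Their sums were 45064 and 38069 in untreated cells, 25435 and 24926 under LPS, and 51435 and 34706 under LPS+USP7i, lowest with LPS. *Zbtb46* and *Ccr9* went the other way and were highest with LPS. *Zbtb46* was at 3.93 and 3.95 in untreated cells, 6.29 and 6.59 under LPS, and 5.94 and 6.24 under LPS+USP7i. *Ccr9* was at 3.84 and 3.64, 6.60 and 6.10, and 4.55 and 5.53, in the same order. Mast cell and basophil genes had that status on all arrays for 0 of 5, and T, B and NK cell genes for 3 of 8, with the probe of *Cd3e* the brightest. The T, B and NK cell sums were higher in replicate 1 of each group, at 957 and 656 in untreated cells, 1289 and 764 under LPS, and 1153 and 869 under LPS+USP7i. *Ncr1* was higher in replicate 2 under LPS (4.51 and 4.77) and LPS+USP7i (4.38 and 5.92), as was *Pax5* under LPS+USP7i (4.86 and 5.07). The part of other cell types in the results was not tested, and in such bulk RNA fewer cells of a type and less RNA per cell cannot be told apart.

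LPS was set against no treatment to ask which of the factors respond to TLR4 stimulation. *Edn1*, *Areg*, *Ereg* and *Inhba* were higher with LPS, and *Vegfa* (probe A_52_P638895 alone) and *Pdgfb* (both probes) were lower. *Hbegf*, *Tgfb1*, *Igf1* and *Hgf* did not pass the threshold, an adjusted p of 0.05. Counted as probes, 4 of 16 were called higher and 3 lower, while 7.09% of all probes were called higher and 10.7% lower. *Edn1* enters this count by the same threshold on its limma adjusted p, which is not given. Since it was selected on these values, passing is no test of it. The median log2 difference was −0.09 over the members and 0.0045 over all probes, and nothing is read from these counts because the list was chosen with results known. Of the 16 probes, 15, from 9 genes, were well above background on both arrays of some group, and the *Ereg* probe was so on 1 array only.

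LPS+USP7i was set against LPS to ask how the USP7 inhibitor alters the response. Here *Areg* and *Vegfa* (probe A_52_P638895 alone) were higher, *Edn1* and *Ereg* were lower, and the other members did not pass the threshold. As probes, 2 of 16 were called higher and 2 lower, beside 4.66% and 3.79% of all probes. *Edn1* again counts by the threshold, and its passing supports nothing. The median log2 difference was −0.01 over the members and −0.00098 over all probes. Against untreated cells, LPS+USP7i cells had 4 probes called higher (*Hbegf*, *Areg*, *Inhba* and *Edn1*) and 3 lower (both *Pdgfb* probes and 1 of *Igf1*). Of all probes 5.65% and 7.34% were called, and passing is again no test of *Edn1*. In that comparison the median difference was −0.13 over the members and 0.00027 over all probes. The 3 comparisons share arrays, so their calls are not independent of each other.

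These calls rest on few arrays. For LPS against untreated, fewer member probes passed with an untreated or an LPS array left out, *Edn1* counted each time. Fewer of all probes passed in the same fits, so nothing about the members is read from this fall. For the inhibitor, limma called 0 member probes without untreated replicate 1, without untreated replicate 2 and in a fit of the 2 groups alone, with 8 at an unadjusted p under 0.05 each time. In these fits limma also called 0 of all probes, with a smallest adjusted p of 0.0561 and at least 11256 probes at an unadjusted p under 0.05, while the differences stayed those of the full fit, so nothing about the members is read from these 0 calls. With either LPS array left out, 1 member probe passed (*Ereg*). A replicate block, which the labels do not state, ended the inhibitor calls of the members tested, with an adjusted p of 0.0543 for *Areg*, 0.0577 for *Ereg* and 0.0664 for the *Vegfa* probe A_52_P638895.

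**Figure D1:**
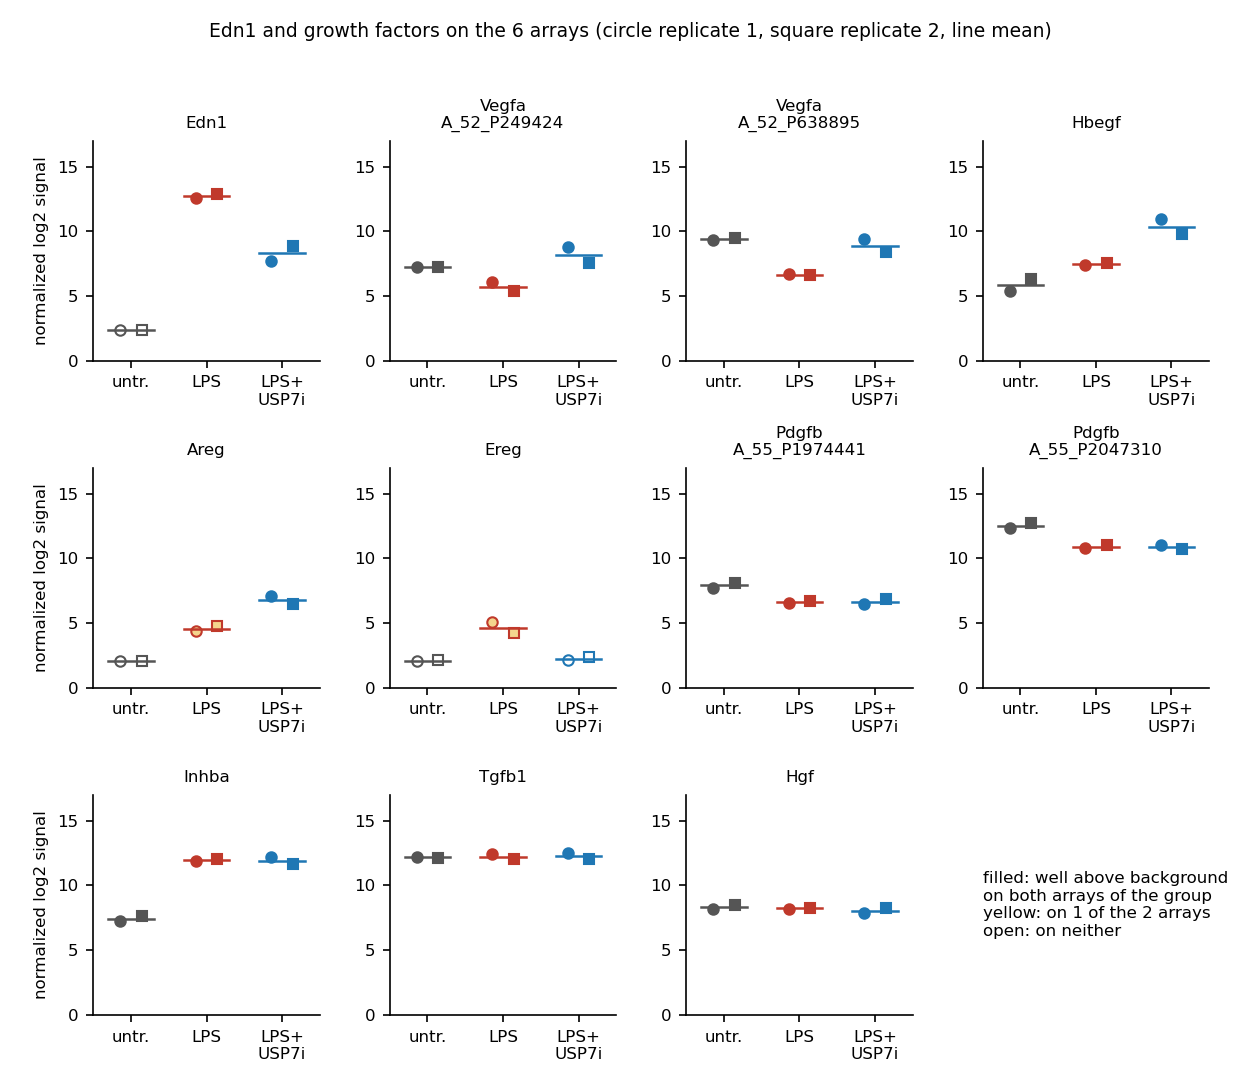
Normalized log2 signal (vertical axis) of *Edn1* and the other members apart from *Igf1* in untreated, LPS and LPS+USP7i cells, with a circle for replicate 1, a square for replicate 2 and a line at the mean. Filled symbols mark groups well above background on both arrays, yellow symbols on 1 and open symbols on neither; *Edn1* is at 2.38 and 2.35 in untreated cells, 12.59 and 12.84 under LPS, and 7.68 and 8.89 under LPS+USP7i.

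The panels by array show several kinds of profile. *Edn1* and *Ereg* peaked in the LPS group, *Areg* and *Hbegf* had their highest values in the LPS+USP7i group, and *Vegfa* had its lowest values in the LPS group. *Inhba* was high and *Pdgfb* low in both groups that received LPS, while *Tgfb1* and *Hgf* differed little between groups.

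*Edn1* had the largest log2 differences among the members in both comparisons. Its probe (A_51_P115005, chromosome 13 from 42403101 to 42403160 on build mm9) was printed 10 times on each array. The signal was 2.38 and 2.35 in untreated cells, 12.59 and 12.84 under LPS, and 7.68 and 8.89 under LPS+USP7i. The 3 groups did not overlap, and the LPS+USP7i arrays lay further apart than those of the other groups, with replicate 1 the lower. The spots of an array had an SD of at most 0.47, a spread of repeated spots within a sample.

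*Edn1* was well above background on 0 of the 2 untreated arrays and on both arrays of the other groups. With LPS it was 10.35 higher on the log2 scale (standard error 0.44, n = 2 a group) and at least 448-fold higher. Such a bound replaces a dim group by the faintest signal that still counts as well above background on its arrays, and it holds for the signal as processed here. LPS+USP7i was lower than LPS by a log2 difference of −4.43 (standard error 0.44), or 21.6-fold, with −4.92 in replicate 1 and −3.95 in replicate 2. It was still at least 20.7-fold above untreated cells, which places it between the untreated and the LPS level. The differences of LPS and of LPS+USP7i from untreated cells were 6.60 and 2.46 with normexp background correction and 8.35 and 3.98 in the deposited table, which is less than these bounds, while the difference with the inhibitor ranged from −5.04 to −3.82 over the 14 alternatives that change values or fit, the 15th being a minimum difference that bears on counts alone.

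Among 13259 RefSeq-matched genes well above background in some group, the profiles nearest to that of *Edn1* over the 6 arrays belonged to *Il1b*, *Cxcl9*, *Adamts4*, *Cd69* and *Serpina3f*. Likeness was the Euclidean distance between log2 profiles centred on their own means, at 1.17, 1.21, 1.50, 1.81 and 2.02 in that order. *Il1b* encodes an inflammatory cytokine, *Cxcl9* a chemokine, *Adamts4* a protease of the extracellular matrix, *Cd69* a membrane protein of activated leukocytes and *Serpina3f* a protease inhibitor. For *Adamts4* the signal was 3.14 and 3.27 in untreated cells, 12.64 and 13.43 under LPS, and 8.62 and 10.97 under LPS+USP7i. The untreated values of *Edn1*, *Cxcl9*, *Adamts4* and *Serpina3f* were not well above background, so the distances rest in part on values at background, and their order was not tested under another background correction.

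Promoters were looked at because *Edn1*, *Areg* and *Inhba* were all higher with LPS with unlike values under the inhibitor, while *Vegfa* was lower. RefSeq promoters of build GRCm38.p6 were found for 7 of the 10 members, 9 promoters in all, and were missing for *Hbegf*, *Ereg* and *Pdgfb*. The 250 bases before the start are printed 5′ to 3′ on the strand of the gene for *Edn1* (chr13:42301226-42301475, plus strand), *Inhba* (chr13:16011601-16011850, plus strand), *Areg* (chr5:91139349-91139598, plus strand) and the *Vegfa* start that lies farthest upstream (chr17:46032378-46032627, minus strand), with the letters of a motif in capitals.
Edn1: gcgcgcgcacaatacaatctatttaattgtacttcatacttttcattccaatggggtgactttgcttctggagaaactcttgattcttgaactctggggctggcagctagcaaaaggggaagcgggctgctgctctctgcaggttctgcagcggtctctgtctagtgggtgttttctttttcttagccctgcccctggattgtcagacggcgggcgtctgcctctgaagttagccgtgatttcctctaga
Inhba: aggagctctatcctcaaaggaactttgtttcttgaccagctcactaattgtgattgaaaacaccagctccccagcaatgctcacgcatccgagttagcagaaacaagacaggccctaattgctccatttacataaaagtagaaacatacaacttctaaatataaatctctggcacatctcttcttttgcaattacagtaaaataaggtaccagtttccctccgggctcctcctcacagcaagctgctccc
Areg: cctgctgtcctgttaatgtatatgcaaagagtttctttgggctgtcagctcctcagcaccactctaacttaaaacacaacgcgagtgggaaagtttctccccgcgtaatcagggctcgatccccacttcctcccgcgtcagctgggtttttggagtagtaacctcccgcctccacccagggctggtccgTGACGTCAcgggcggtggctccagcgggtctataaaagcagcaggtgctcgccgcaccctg
Vegfa: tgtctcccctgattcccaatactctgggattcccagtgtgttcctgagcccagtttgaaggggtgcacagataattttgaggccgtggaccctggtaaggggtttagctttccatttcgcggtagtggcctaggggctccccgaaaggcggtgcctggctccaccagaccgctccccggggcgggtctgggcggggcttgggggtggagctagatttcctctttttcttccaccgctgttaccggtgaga

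Both strands were searched for 5 motifs, a kappa-B-like motif that opens with GGG and closes with TTTCC after 2 free bases, another that opens with GGGA and closes with TCC after 3 free bases, the AP-1 letters TGANTCA, the cyclic AMP element TGACGTCA and the hypoxia element NACGTG, where N is any base. The first 2 motifs overlap each other in their letters, and the cyclic AMP element shares its ends with the AP-1 letters. Over 32851 promoters of the same length, they were present in 1.41%, 3.86%, 6.75%, 1.55% and 16.5%, in that order. *Areg* held the cyclic AMP element, in capitals above, with its first base 61 bases before the start. *Igf1* held the AP-1 letters 37 bases before its start, and a further *Vegfa* start (chr17:46025164-46025413) held the hypoxia element 211 bases before it, on the opposite strand. The other promoters of the members, those of *Edn1* and *Inhba* among them, held 0 matches. A match is a description of letters and not a binding site, and a promoter without one lacks only these letters in this window.

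Next come the 3 members that bind EGF receptors. *Areg*, which encodes amphiregulin, a ligand of epithelial repair, was at 2.05 and 2.06 in untreated cells, 4.39 and 4.74 under LPS, and 7.09 and 6.48 under LPS+USP7i (A_52_P482897, chromosome 5 from 91570090 to 91570149). The groups did not overlap, and the signal was well above background on 0 of the 2 untreated arrays, 1 LPS array and both LPS+USP7i arrays. *Areg* rose with LPS by 2.51 (standard error 0.25, adjusted p = 0.00917), at least 1.58-fold, and rose further with the inhibitor by 2.22 (standard error 0.25, adjusted p = 0.0246), at least 4.58-fold with the dim LPS array set to its faintest signal well above background. The inhibitor call passed in 8 of 14 alternatives with an adjusted p from 0.00449 to 0.0942, and not with the replicate block, and the difference ran from 0.98 to 2.52. Against untreated cells it was at least 7.33-fold higher in LPS+USP7i cells (log2 difference 4.73, adjusted p = 0.00581), which passed in all 14 alternatives with a difference from 1.39 to 5.20, so these bounds too hold for the signal as processed here. The rise with LPS did not pass with normexp background correction (0.42, adjusted p = 0.127) in the deposited table (1.03, adjusted p = 0.0912), or without untreated replicate 1 (adjusted p = 0.0574) or untreated replicate 2 (adjusted p = 0.0608), and it passed in the other 10 of 14, within a range from 0.00127 to 0.127.

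*Hbegf* encodes heparin-binding EGF-like growth factor, which is released from the cell surface and binds EGFR and ERBB4. Its signal (A_51_P181565) was 5.42 and 6.30 in untreated cells, 7.39 and 7.54 under LPS, and 10.97 and 9.76 under LPS+USP7i. The groups did not overlap and every array was well above background. The log2 difference was 1.61 with LPS (standard error 0.53, adjusted p = 0.142) and 2.90 with the inhibitor (standard error 0.53, adjusted p = 0.0559), and neither passed the threshold. The second passed in 5 of 14 alternatives, with an adjusted p between 0.00785 and 0.193. LPS+USP7i cells stood 22.7-fold above untreated cells, a rise of 4.51 (standard error 0.53, adjusted p = 0.0170), which passed in 9 of 14.

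*Ereg* encodes epiregulin and lies beside *Areg* on chromosome 5, with its probe from 91522553 to 91522612 (A_55_P2096947). It was at 2.10 and 2.12 in untreated cells, 5.08 and 4.24 under LPS, and 2.14 and 2.36 under LPS+USP7i. The LPS arrays lay above all others, and 1 of them was the only array of the 6 with the probe well above background. LPS+USP7i and untreated cells were both at background, with a difference of 0.14 (adjusted p = 0.900). *Ereg* rose with LPS by 2.55 (standard error 0.31, adjusted p = 0.0136), at least 1.68-fold, and fell by 2.41 with the inhibitor (standard error 0.31, adjusted p = 0.0294), at least 1.30-fold. Over the alternatives the LPS difference ran from 0.41 to 2.97, so its bound holds for the signal as processed here. With normexp background correction the inhibitor difference was −0.53, and over the alternatives its adjusted p lay between 0.0133 and 0.113, passing in 7 of 13, while the LPS call passed in 11 of 13. *Areg* was higher and *Ereg* lower with the inhibitor, each by its own test in the fit without a block, and neither passed with the replicate block.

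**Figure D2:**
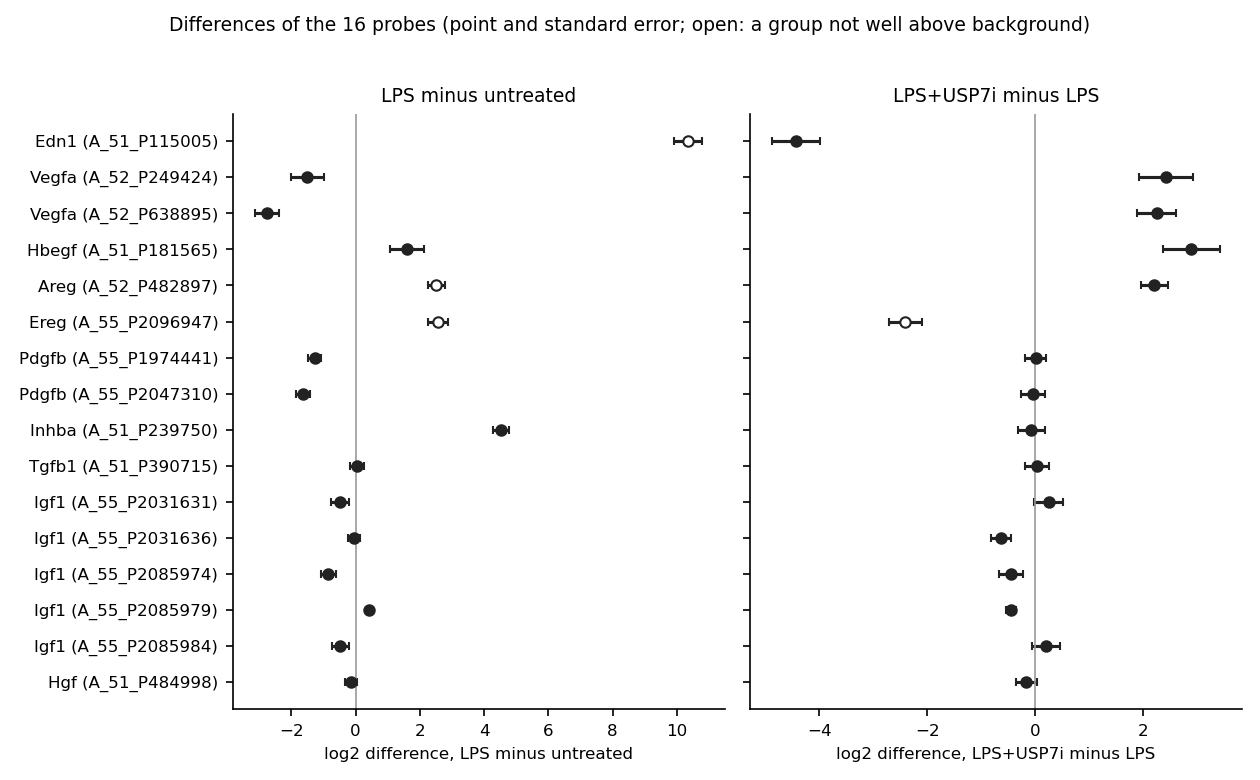
Log2 differences (horizontal axis) of the 16 probes for LPS minus untreated, left, and LPS+USP7i minus LPS, right, as points with standard errors from limma. Open points involve a group that was well above background on neither array. The *Areg* point on the right is filled, with 1 of the LPS arrays well above background. *Edn1* lies farthest from 0 in both panels, at 10.35 and −4.43, and *Inhba* at 4.54 and −0.06.

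The plot of differences holds all members side by side, and those that act on vessels come next. *Vegfa*, the main growth factor of new blood vessels, has probes at 2 places of its gene on chromosome 17. The probe A_52_P638895 (46154387 to 46154446) gave 9.34 and 9.47 in untreated cells, 6.70 and 6.59 under LPS, and 9.41 and 8.39 under LPS+USP7i. LPS lay below the other groups, which overlapped each other. *Vegfa* fell by 2.76 with LPS (standard error 0.36, adjusted p = 0.0162), 6.78-fold, and rose by 2.26 with the inhibitor (standard error 0.36, adjusted p = 0.0441), 4.78-fold. The fall passed in 10 of 14 alternatives. In LPS+USP7i against untreated cells the difference was −0.50 (adjusted p = 0.539). It was −1.01 without LPS+USP7i replicate 1 and 0.0029 without LPS+USP7i replicate 2, so its size rests on single arrays.

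The other *Vegfa* probe, A_52_P249424 (46162376 to 46162435), was likewise lowest with LPS, without passing the threshold. It was at 7.22 and 7.22 in untreated cells, 6.06 and 5.39 under LPS, and 8.79 and 7.52 under LPS+USP7i. Its groups did not overlap, and here LPS+USP7i lay above untreated cells. The difference was −1.50 with LPS (standard error 0.51, adjusted p = 0.151) and 2.43 with the inhibitor (standard error 0.51, adjusted p = 0.0729). Over the alternatives the inhibitor's adjusted p lay between 0.0167 and 0.221 for this probe and ran from 0.00760 to 0.153 for A_52_P638895, which passed in 8 of 14 and not with the replicate block.

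*Pdgfb* encodes the PDGF B chain, which recruits pericytes and smooth muscle cells. Its probe A_55_P2047310 (chromosome 15 from 79826376 to 79826435) was at 12.32 and 12.75 in untreated cells, 10.77 and 11.03 under LPS, and 11.04 and 10.69 under LPS+USP7i. Untreated cells lay above both LPS-treated groups, which overlapped. This probe fell by 1.64 with LPS (standard error 0.22, adjusted p = 0.0178), 3.11-fold, and the probe A_55_P1974441 (79827438 to 79827497) fell by 1.28 (standard error 0.20, adjusted p = 0.0246), 2.43-fold, in 11 and 10 of 14 alternatives. With the inhibitor the differences were −0.03 and 0.01, with 95% intervals from −0.65 to 0.59 and from −0.55 to 0.57. Both probes stayed below untreated cells in LPS+USP7i, with differences of −1.67 and −1.27 (adjusted p = 0.0220 and 0.0318), and each of these passed in 7 of 14, with an adjusted p up to 0.0872 and 0.122.

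*Inhba* encodes the activin subunit whose paired form is activin A, a TGF-beta family cytokine of inflamed tissue. Its probe (A_51_P239750, chromosome 13 from 16118634 to 16118693) was at 7.23 and 7.62 in untreated cells, 11.88 and 12.05 under LPS, and 12.17 and 11.62 under LPS+USP7i. Both groups with LPS lay above untreated cells and overlapped each other. *Inhba* rose by 4.54 with LPS (standard error 0.25, adjusted p = 0.00377), 23.2-fold, and this passed in all 14 alternatives (adjusted p from 5.39e-05 to 0.0325). The difference with the inhibitor was −0.06 (standard error 0.25, adjusted p = 0.960), with a 95% interval from −0.76 to 0.63. *Edn1* and *Inhba* were both higher with LPS, and whether their inhibitor differences differ from each other was not tested.

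*Tgfb1* encodes TGF-beta1, which is stored outside the cell in a latent form and restrains inflammation. The probe (A_51_P390715, chromosome 7 from 26489877 to 26489936, 10 spots an array) gave 12.22 and 12.15 in untreated cells, 12.43 and 12.02 under LPS, and 12.48 and 12.04 under LPS+USP7i. All groups overlapped. Its differences were 0.04 with LPS (adjusted p = 0.979) and 0.04 with the inhibitor (adjusted p = 0.983), with a 95% interval from −0.58 to 0.65 for the latter. *Hgf*, the ligand of MET (A_51_P484998, chromosome 5 from 16124829 to 16124888), was at 8.22 and 8.53 in untreated cells, 8.16 and 8.29 under LPS, and 7.86 and 8.28 under LPS+USP7i. The *Hgf* groups overlapped too, with differences of −0.15 (adjusted p = 0.740) and −0.16 (adjusted p = 0.733).

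*Igf1*, a growth factor that macrophages make in quantity, was measured by 5 probes, each printed 2 times on an array. The probes lie along the gene on chromosome 10 from 87378456 to 87399640, and A_55_P2085984 and A_55_P2031631 overlap each other in position, so they are not separate measurements of the gene. With LPS their differences ran from −0.85 to 0.42 and with the inhibitor from −0.63 to 0.25, and none of these passed the threshold in the fit of all 6 arrays without a block. Among the alternatives, A_55_P2085974 passed for LPS in 6 of 14 and A_55_P2085979 in 4, and A_55_P2085979 passed for the inhibitor in 1, with normexp background correction. The signal was well above background on all 6 arrays for every one of the probes.

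**Figure D3:**
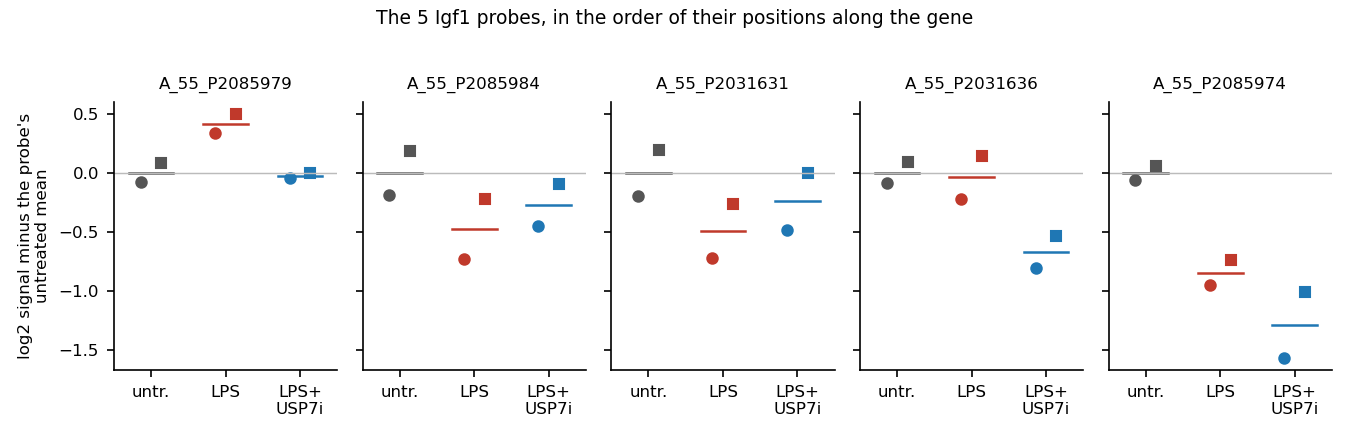
Log2 signal of the 5 *Igf1* probes minus each probe's untreated mean (vertical axis), in the order of their positions along the gene, with a circle for replicate 1, a square for replicate 2 and a line at the group mean. The first probe is higher with LPS by 0.42 and the last lower by a difference of −0.85, and the last is lowest with LPS+USP7i, at −1.29.

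The *Igf1* probes did not follow one pattern. The first in position, A_55_P2085979, was at 9.92 and 10.08 in untreated cells, 10.33 and 10.49 under LPS, and 9.95 and 9.99 under LPS+USP7i. Its LPS arrays lay above all the others (0.42, adjusted p = 0.0642), and the inhibitor difference was −0.44 (adjusted p = 0.0815). The last, A_55_P2085974, was at 13.21 and 13.33 in untreated cells, 12.32 and 12.53 under LPS, and 11.70 and 12.26 under LPS+USP7i. Here untreated cells were the highest and LPS+USP7i the lowest, with no overlap of groups. Against untreated cells it fell by 1.29 in LPS+USP7i (standard error 0.22, adjusted p = 0.0378), 2.44-fold, which passed in 8 of 14 alternatives with an adjusted p from 0.00501 to 0.164.

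The overlapping pair of *Igf1* probes had the brightest signal of the gene. A_55_P2031631 was at 15.02 and 15.42 in untreated cells, 14.50 and 14.95 under LPS, and 14.74 and 15.22 under LPS+USP7i. LPS cells lay below untreated cells, while LPS+USP7i cells overlapped both. The difference with LPS was −0.49 (adjusted p = 0.375) for this probe and −0.48 (adjusted p = 0.361) for A_55_P2085984. With a replicate block, which pairs arrays by a number that the labels do not state to be shared, both passed (adjusted p = 0.0296 and 0.0418), as did A_55_P2085979 and A_55_P2085974 (0.0464 and 0.0496). The differences of A_55_P2031631 within replicates were −0.52 and −0.47, and its adjusted p ran from 0.0296 to 0.810 over the alternatives. Under 75th percentile scaling the LPS differences of A_55_P2031631 and A_55_P2085984 were 0.11 and 0.15, or −0.40 and −0.36 relative to the median of all probes, which that scaling moves by 0.51. For A_55_P2031636 the differences were −0.04 with LPS (adjusted p = 0.972) and −0.63 with the inhibitor (adjusted p = 0.141).

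By the same distance over the 6 arrays, the genes nearest to the brightest *Igf1* probe were *Plp2* (0.12), *Cd81* (0.13), *Fam136a* (0.165), *Yaf2* (0.166) and *Tmem165* (0.167). *Plp2* and *Cd81* encode membrane proteins with several passes. All 5 were well above background on every array, and within each group replicate 2 was the higher, as it was for the *Igf1* probe. With LPS their differences ran from −0.56 for *Plp2* to −0.42 for *Fam136a*.

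Scaling bears on comparisons with untreated cells, by unlike amounts for different probes. Quantile normalization and 75th percentile scaling gave LPS differences of −2.76 and −2.77 for the *Vegfa* probe A_52_P638895 and −0.15 and −0.14 for *Hgf*. For the *Igf1* probe A_55_P2031631 they gave −0.49 and 0.11. Under 75th percentile scaling the median of all probes was 0.51 higher with LPS and 0.55 higher with LPS+USP7i than in untreated cells, and 0.0023 higher in LPS+USP7i than in LPS. Relative to that shift, the LPS differences were 10.42 for *Edn1*, 4.19 for *Inhba*, 2.40 for *Areg*, 2.42 for *Ereg*, −3.27 for the *Vegfa* probe A_52_P638895, and −1.83 and −1.85 for the *Pdgfb* probes. Each kept its sign. The median of all probes takes in probes not well above background, and their part in the shift was not tested. For *Tgfb1* the LPS difference was −0.10 relative to the shift and 0.41 before it, and for the first *Igf1* probe −0.01 and 0.50. That scaling called 21768 probes higher and 5669 lower with LPS, where quantile normalization called 3948 and 5947, so the balance of the 2 directions turns with the scaling. For LPS+USP7i against untreated cells the numbers were 21937 and 4605, where quantile normalization called 3147 and 4086.

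Receptors on the pathway lists are given whether or not they passed the threshold. Of the endothelin receptors, *Ednra* was well above background on 0 arrays, and *Ednrb*, which also clears endothelin, was at 7.41 and 5.83 in untreated cells, 9.03 and 8.22 under LPS, and 11.41 and 11.88 under LPS+USP7i. Its groups did not overlap. The differences were 2.002 with LPS (standard error 0.65, adjusted p = 0.136) and 3.02 with the inhibitor (standard error 0.65, adjusted p = 0.0772), and LPS+USP7i cells were higher than untreated cells by 5.02 (standard error 0.65, adjusted p = 0.0203), which passed in 8 of 14 alternatives.

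**Figure D4:**
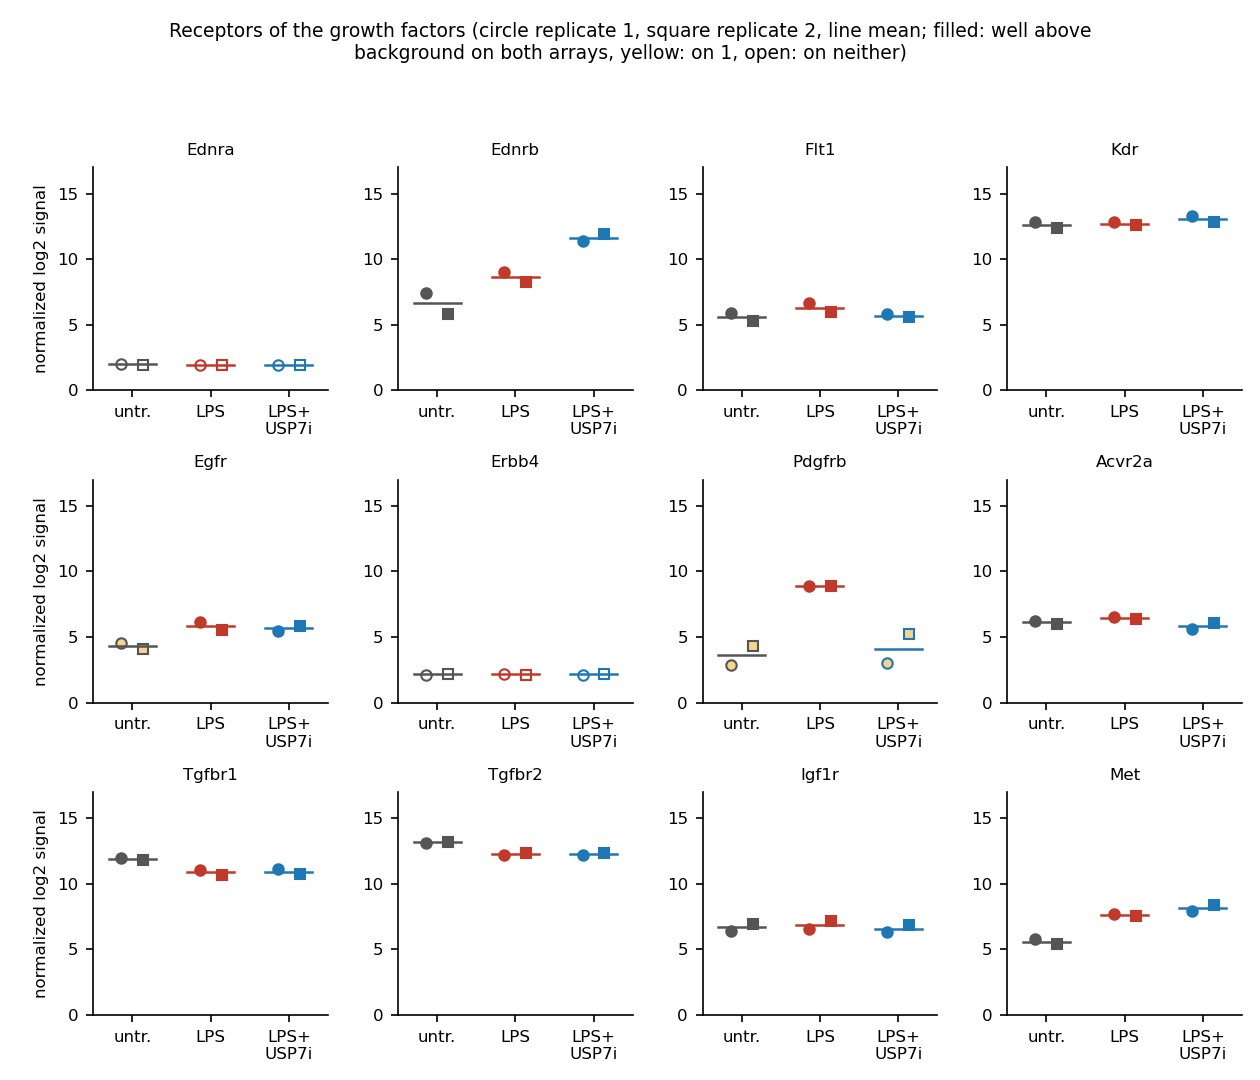
Normalized log2 signal (vertical axis) of 12 receptors in untreated, LPS and LPS+USP7i cells, with a circle for replicate 1, a square for replicate 2 and a line at the mean; filled symbols mark groups well above background on both arrays, yellow on 1 and open on neither. *Ednrb* runs from 5.83 in an untreated array to 11.88 under LPS+USP7i, and *Ednra* and *Erbb4* stay at background. *Pdgfrb* is highest in the LPS group (8.89 on both arrays) and at 3.02 and 5.22 under LPS+USP7i.

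*Pdgfrb*, the receptor of the PDGF B chain, was at 2.86 and 4.34 in untreated cells, 8.89 and 8.89 under LPS, and 3.02 and 5.22 under LPS+USP7i, and both LPS arrays lay above the other groups, which overlapped. It rose by 5.29 with LPS (standard error 0.93, adjusted p = 0.0321), with 1 of the 2 untreated arrays well above background. With the other set to its faintest signal well above background, the rise was at least 27.6-fold. The call passed in 10 of 14 alternatives, over which the difference ran from 2.76 to 6.03. The inhibitor difference was −4.77 (adjusted p = 0.0640). *Pdgfrb* is also on the fibroblast list, whose summed linear signal was 97.0 and 104 in untreated cells, 621 and 567 under LPS, and 116 and 111 under LPS+USP7i. The probe of *Pdgfrb* is the brightest of that list by the mean over the 6 arrays, through the LPS arrays, and the collagen genes *Col1a1* and *Col3a1* were at background on all arrays. *Dcn*, also on that list, was well above background on 5 arrays, at 4.56 and 4.47 in untreated cells, 6.03 and 5.10 under LPS, and 5.43 and 4.20 under LPS+USP7i. Whether stromal cells had a part in these values was not tested.

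*Met*, the receptor of HGF, was at 5.78 and 5.43 in untreated cells, 7.70 and 7.57 under LPS, and 7.90 and 8.42 under LPS+USP7i. Untreated cells lay below both other groups. *Met* rose by 2.03 with LPS (standard error 0.23, adjusted p = 0.0117), 4.08-fold, in 11 of 14 alternatives, and its inhibitor difference was 0.53 (adjusted p = 0.310). *Egfr* rose by 1.52 (adjusted p = 0.0396), from 4.56 and 4.08 to 6.12 and 5.56, and this passed in 5 of 14 alternatives with an adjusted p from 0.00872 to 0.153. Of the untreated arrays, 1 had *Egfr* well above background. *Erbb2*, *Erbb3* and *Erbb4* were well above background on 0 arrays. Of the TGF-beta receptors, *Tgfbr2* fell by 0.90 (adjusted p = 0.00969) and *Tgfbr1* fell by 1.02 (adjusted p = 0.0497) with LPS, in 11 and 7 of 14 alternatives, and their inhibitor differences were −0.02 and 0.04.

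*Acvr1*, *Acvr1b* and *Acvr2b* encode activin receptors, and *Eng* a co-receptor of TGF-beta. *Acvr1* rose by 0.89 with LPS (adjusted p = 0.00905) and fell by 0.54 with the inhibitor (adjusted p = 0.0466), and *Acvr1b* fell by 0.49 (adjusted p = 0.0176) and fell by a further 0.54 (adjusted p = 0.0276). *Acvr2b* fell by 1.65 with LPS (adjusted p = 0.00400) and rose by 0.80 with the inhibitor (adjusted p = 0.0266), and *Eng* rose by 0.65 (adjusted p = 0.0286) and fell by 0.94 (adjusted p = 0.0250). The LPS calls passed in 12, 9, 14 and 9 of 14 alternatives, and the inhibitor calls in 5, 6, 8 and 7, in that order.

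The remaining receptors did not pass in either comparison, apart from *Nrp1*, given below. The VEGF receptors *Flt1* and *Kdr* had LPS differences of 0.72 and 0.10 and inhibitor differences of −0.62 and 0.34. The activin receptor *Acvr2a* had 0.33 and −0.61, and *Igf1r* had 0.18 and −0.27, in the same order. The values were 0.66 and 0.17 for *Tgfbr3*, 0.56 and −0.81 for *Nrp2*, −1.73 and 0.0074 for *Insr*, and −0.14 and −0.38 for *Igf2r*. *Flt4*, *Pdgfra* and *Mst1r* were well above background on 0 arrays.

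The other genes of these pathways were counted over lists of 93 genes, all on the array and each represented by its brightest probe, 62 of them well above background on both arrays of a group. With LPS, 16 were called higher and 17 lower, beside 7.98% and 12.8% of all gene names. In LPS+USP7i against LPS, 9 were called higher and 10 lower, beside 5.52% and 4.27%. LPS+USP7i against untreated cells gave 13 higher and 6 lower, beside 6.16% and 8.71%. With 75th percentile scaling, which called 49.3% of all probes with LPS, the LPS counts were 37 and 18, and those of LPS+USP7i against untreated cells 40 and 10, with 47.7% of all probes called. With the replicate block the inhibitor counts were 8 and 4, with 6.36% of all probes called. Of the calls given below with an adjusted p, the block ended the LPS call of *Adam17* (adjusted p = 0.0523) and the inhibitor calls of *Pdgfa* (0.0854), *Rhbdf2* (0.0789) and *Inhbb* (0.0633). It also ended the LPS call of *Egfr* (0.0618) and the inhibitor calls of *Acvr1* (0.0642) and *Acvr1b* (0.0571). In a fit of the 2 groups alone limma called 0 of the 93 for the inhibitor, with 34 at an unadjusted p under 0.05, and 0 of all 55680 probes. The LPS calls of *Vegfd*, *Egf* and *Inhbc* and the inhibitor call of *Ltbp1* lie within background, since neither group compared had the gene well above it on any array. The same holds for the calls of *Fst* and *Inhbc* in LPS+USP7i against untreated cells.

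The activin and TGF-beta list held 34 genes, 28 of them well above background in a group. With LPS 8 were higher and 10 lower, beside the 7.98% and 12.8% of all gene names, and with the inhibitor 4 were higher and 8 lower, beside 5.52% and 4.27%. The list was chosen with results known, so nothing is read from these counts. Its median log2 difference was −0.0047 with LPS and −0.09 with the inhibitor, beside 0.0016 and 0.00091 over all genes. Follistatin (*Fst*), which binds and blocks activin, was at 2.08 and 1.997 in untreated cells, 6.94 and 7.14 under LPS, and 3.39 and 3.69 under LPS+USP7i. The groups did not overlap, and *Fst* was well above background on both LPS arrays and on 0 of the others.

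*Fst* rose by 5.005 with LPS (standard error 0.14, adjusted p = 0.00249), at least 8.76-fold, and fell by 3.50 with the inhibitor (standard error 0.14, adjusted p = 0.0104), at least 6.78-fold. *Smad7*, the inhibitory SMAD, went the other way, from 6.06 and 6.24 in untreated cells to 2.99 and 2.92 with LPS and 6.89 and 6.56 under LPS+USP7i. Neither LPS array had *Smad7* well above background, while all arrays of the other groups did. *Smad7* fell by 3.20 with LPS (adjusted p = 0.00312), at least 3.17-fold, and rose by 3.78 with the inhibitor (adjusted p = 0.0104), at least 4.73-fold. For both genes the LPS call held in all 14 alternatives and the inhibitor call in 11. Over these the differences of *Fst* ran from 1.62 to 5.42 and from −3.65 to −1.36, and those of *Smad7* from −3.29 to −0.89 and from 1.25 to 3.94, so the folds depend on the processing.

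*Smad3*, which carries the signal of activin and TGF-beta receptors, was at 9.04 and 8.89 in untreated cells, 7.44 and 7.32 under LPS, and 8.96 and 8.75 under LPS+USP7i. LPS lay below both other groups, which overlapped. With the inhibitor *Smad3* rose by 1.47 (standard error 0.11, adjusted p = 0.0149), 2.78-fold, which passed in 9 of 14 alternatives. *Itgb8*, an integrin chain that activates latent TGF-beta, rose by 5.36 with LPS (standard error 0.92, adjusted p = 0.0300), at least 10.6-fold, from 1.95 and 1.97 to 7.28 and 7.36, and the LPS+USP7i arrays were at 2.07 and 4.68. Its LPS call passed in 10 of 14, with a difference from 1.84 to 5.79.

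*Inhbb*, the gene of another activin subunit, was at 2.50 and 2.40 in untreated cells, 5.06 on the 1 LPS array with a usable spot, and 2.40 and 2.73 under LPS+USP7i. The spot of LPS replicate 2 was marked as an outlier and left out, so the fit takes the lone LPS array to vary like the other groups, and *Inhbb* is among the list's 8 higher and 8 lower on that footing. The difference was 2.60 with LPS (adjusted p = 0.0105), at least 2.21-fold, and −2.49 with the inhibitor (adjusted p = 0.0235), at least 1.71-fold. With that spot kept, the differences were 5.20 and −5.08 and neither passed (adjusted p = 0.163 and 0.217). Over the alternatives the adjusted p ranged from 0.00156 to 0.163 and from 0.00436 to 0.217, and the calls passed in 9 and 6 of 13.

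The panels of pathway genes place these opposite profiles side by side. Among 17 genes of the EGF family, 9 were well above background in a group. With LPS 5 were higher (*Egfr*, *Errfi1*, *Adam17*, *Rhbdf1*, *Rhbdf2*) and 3 lower (*Egf*, *Lrig1*, *Adam10*), beside 7.98% and 12.8% of all gene names. With the inhibitor 1 was higher and 2 lower, beside 5.52% and 4.27%. Nothing is read from these counts, since this list too was chosen with results known. The list's median difference was 0.00064 with LPS and 0.0022 with the inhibitor, beside 0.0016 and 0.00091 over all genes. *Rhbdf2*, which brings ADAM17 to the cell surface, was at 10.06 and 10.11 in untreated cells, 12.97 and 12.74 under LPS, and 12.25 and 12.26 under LPS+USP7i. Its groups did not overlap.

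*Rhbdf2* rose by 2.77 with LPS (standard error 0.10, adjusted p = 0.00269), 6.83-fold, which passed in all 14 alternatives, and fell by 0.60 with the inhibitor (adjusted p = 0.0468), 1.52-fold, which passed in 5. *Adam17* itself rose by 1.25 with LPS (adjusted p = 0.0465), 2.37-fold, in 9 of 14. *Errfi1*, a feedback inhibitor of EGFR, rose by 1.73 (standard error 0.14, adjusted p = 0.00606), 3.31-fold, in all 14 alternatives. With the inhibitor *Lrig1*, a membrane protein that restrains EGF receptors, rose by 1.40 (adjusted p = 0.0165), 2.63-fold, and *Rhbdf1* fell by 0.61 (adjusted p = 0.0213), 1.52-fold, which passed in 10 and in 6 of 14, the second with an adjusted p from 0.0185 to 0.154.

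The VEGF and PDGF list held 14 genes, 10 of them well above background in a group. With LPS 2 were higher (*Pgf*, *Pdgfrb*) and 4 lower (*Vegfb*, *Vegfd*, *Nrp1*, *Pdgfa*), beside 7.98% and 12.8% of all gene names. With the inhibitor 3 were higher (*Vegfd*, *Pgf*, *Pdgfa*) and limma called 0 lower, beside 5.52% and 4.27%. At an unadjusted p under 0.05, 2 were lower with the inhibitor. As this list was chosen with results known, nothing is read from its counts. *Vegfd* was well above background on 1 LPS+USP7i array and on 0 arrays of the other groups. The list's medians were 0.05 with LPS and 0.13 with the inhibitor, beside 0.0016 and 0.00091 over all genes. *Pgf*, the placental growth factor that binds FLT1, was at 4.43 and 4.77 in untreated cells, 6.19 and 6.07 under LPS, and 7.56 and 7.87 under LPS+USP7i. Its groups followed each other without overlap.

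*Pgf* rose by 1.53 with LPS (standard error 0.17, adjusted p = 0.0117), 2.90-fold, and by a further 1.59 with the inhibitor (standard error 0.17, adjusted p = 0.0229), 3.01-fold. These passed in 11 and in 7 of 14 alternatives, the second with an adjusted p from 0.00263 to 0.0892. *Pdgfa*, the other classical PDGF chain, fell by 1.44 with LPS (adjusted p = 0.00929), 2.71-fold, and rose by 0.88 with the inhibitor (adjusted p = 0.0465), 1.84-fold, which passed in 5 of 14 alternatives with an adjusted p from 0.0167 to 0.157. The VEGF co-receptor gene *Nrp1* fell by 1.34 with LPS (adjusted p = 0.0186), 2.54-fold, in 10 of 14.

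In the endothelin list 2 of 7 genes were well above background in a group, and limma called 0 genes with LPS and 0 with the inhibitor, with 2 at an unadjusted p under 0.05 in each comparison. The medians were −0.00024 and 0.19. *Ednrb* was the 1 gene called higher in LPS+USP7i against untreated cells. *Edn2* and *Edn3*, which encode the other endothelins, were never well above background on both arrays of a group. Of 21 genes of the IGF and HGF pathways, 13 were well above background in a group. *Met* was the 1 gene called with LPS and *Irs2* the 1 called with the inhibitor, and the medians were 0.03 and −0.03. Over all gene names, 7.98% were called higher and 12.8% lower with LPS, and 5.52% and 4.27% with the inhibitor. The medians over all genes were 0.0016 and 0.00091. Both lists were chosen with results known, so nothing is read from their counts.

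*Irs2*, an adaptor of the insulin and IGF1 receptors, was at 9.91 and 9.68 in untreated cells, 8.43 and 8.47 under LPS, and 12.42 and 11.32 under LPS+USP7i. The groups did not overlap, and the inhibitor group was the highest. *Irs2* rose by 3.42 with the inhibitor (standard error 0.40, adjusted p = 0.0253), 10.7-fold, which passed in 9 of 14 alternatives with an adjusted p from 0.00178 to 0.105.

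For any of these genes taken alone, an exact permutation test of 2 arrays against 2 gives a two-sided p of 0.333 at the lowest, so single genes were read from the limma fit over all probes.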

How the data were processed

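The authors deposited the scanner files of 6 arrays, in which Feature Extraction 10.7.3.1 gives each spot an intensity corrected for local background, and a table of normalized log2 values, 1 per spot and array. Here the processed intensities were log2-transformed and quantile-normalized, spots marked as outliers were left out (119 to 172 an array), and the spots of a probe were averaged. The model of limma 3.58.1 (R 4.3.3; lmFit, eBayes) held the 3 groups together, with 3 residual degrees of freedom, and Benjamini-Hochberg adjustment ran over 55680 probes. Probe positions are those of the files, on build mm9. Gene names and promoters come from RefSeq (GRCm38.p6), and 22221 gene names matched.

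The members and lists were chosen with earlier results of these data known. Named were all members and the receptors on the pathway lists, some of which were added after their calls were known. To these were added up to 4 genes from each pathway list and comparison, those past the threshold with the largest difference and well above background on both arrays of a group, and the 5 genes nearest in profile to *Edn1* and to *Igf1*. The alternatives were 75th percentile scaling, normexp background correction (offset 50), the deposited log2 values, a fit without dim probes, a fit with the outlier spots, eBayes with a trend, a separate fit for each pair of groups, a replicate block, leaving out single arrays, and a minimum log2 difference of 1, which bears on counts alone and is not among the 14 that single probes are given for.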

Additional observations from a re-analysis of the deposited data

How the results depend on the processing

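Of 669 single-probe values under the alternatives, 575 kept their side of the threshold or, for *Edn1*, moved by less than the replicate spread, 60 no longer passed, 29 passed only there, 5 (all of *Edn1*) moved further, and 0 reversed. Among the 575 are 28 that changed sign while past the threshold in neither setting. The 7 member probes called for LPS minus untreated became 11 with the replicate block and between 2 and 8 with an array left out. The 4 called for LPS+USP7i minus LPS became 7 with normexp background correction, 0 by limma in a fit of the 2 groups alone (8 at an unadjusted p under 0.05), 1 with the replicate block, and between 0 and 4 with an array left out. The 7 called for LPS+USP7i minus untreated became 3 in a fit of the 2 groups alone and between 2 and 5 with an array left out. *Edn1* is counted in these wherever its limma adjusted p passed, which is no test of it. It is the 1 probe left for LPS+USP7i minus LPS with the replicate block. The fit with dim probes left out tested 25084 probes. Its shares, given below, have that base, so no change from the shares of all probes is read from them. That fit called 4468 probes higher and 6906 lower for LPS minus untreated, where the full fit called 3948 and 5947. It called 3772 and 3287 for LPS+USP7i minus LPS, where the full fit called 2595 and 2109. For LPS+USP7i minus untreated it called 3995 and 5262, where the full fit called 3147 and 4086. Over the probes tested in each fit, the share called moved too. For LPS minus untreated it was 17.8% in the full fit, 18.7% with the replicate block, 49.3% with 75th percentile scaling, 45.3% with dim probes left out, and 7.21% to 16.5% with an array left out. For LPS+USP7i minus LPS it was 8.45%, and became 12.6% with normexp background correction, 28.1% with dim probes left out, 0% by limma in a fit of the 2 groups alone (11257 probes at an unadjusted p under 0.05), 6.36% with the replicate block, and 0% to 8.19% with an array left out. For LPS+USP7i minus untreated it was 13.0%, and became 47.7% with 75th percentile scaling, 36.9% with dim probes left out, 8.41% in a fit of the 2 groups alone and 2.80% to 9.97% with an array left out. A fit of 2 groups or without an array has fewer samples, and otherwise the cause was not tested.

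The replicate block takes the replicate number as shared between groups, which the labels do not state. Replicate 1 of every group lay in slide column 1 and replicate 2 in column 2, so replicate number and slide column cannot be told apart. The deviations of replicates from their group means correlated between groups with r = 0.47, 0.40 and 0.42 over 20721 probes, which are not independent. With an array left out, the lone array of its group is assumed to vary like the others. Signal over background limits *Edn1*, *Areg* and *Ereg* in untreated cells, *Areg* and *Ereg* with LPS (1 of 2 arrays well above background each), and *Ereg* with LPS+USP7i. Of the named pathway genes it limits *Fst*, *Itgb8*, *Inhbb* and *Pdgfrb* in untreated cells and with LPS+USP7i, *Egfr* in untreated cells, and *Smad7* with LPS. Their differences depend on the background correction. *Ereg* has no value with dim probes left out.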
